A study of Mus musculus with 14 samples.

Results

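Among 5 libraries labelled Cep120 KO from sorted ureteric bud cells of the mouse kidney, 2 held abundant RNA of Six2 and most other nephron progenitor genes. The others held almost no Six2. The 4 libraries compared are Cep120 KO libraries 6 and 7, set against Cep120 KO libraries 4 and 5, out of 14 libraries in the series. They were divided by the count of Six2, a transcription factor that keeps nephron progenitors undifferentiated: libraries 6 and 7 were above 50 CPM (counts scaled to the library total: 162 and 114), and libraries 4 and 5 were below 5 CPM (0.982 and 1.18). The libraries were thus chosen by a measured value, the Six2 count. No Cep120 KO library lay between those bounds. The remaining one, Cep120 KO library 2, had 1.07 CPM, also below the lower bound, so its Six2 count did not exclude it from the low pair. Library 2 served with 3 controls of the same line only for comparison. Because Six2 in these same libraries made the division, every difference between the pairs is a description, and no p-value is given.

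All 4 libraries carry the genotype label Cep120 KO and are marked homozygous in their titles, and they came from kidneys at E13.5. The 3 controls are labelled WT by genotype and het by title. In every library, cells were sorted for GFP that the Hoxb7-Cre transgene co-expresses in the ureteric bud lineage. The transgene therefore sets both where Cre is active and which cells were sorted. Cep120 encodes a protein needed to build centrioles. The labels do not say whether replicates were separate embryos, litters or pools, so the spread between libraries may be technical. The series compared KO with WT ureteric bud cells to find pathways disrupted by centrosome loss.

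In the developing kidney the ureteric bud branches into mesenchyme, and its tips are capped by nephron progenitors. The progenitors secrete GDNF, which acts through the receptor Ret and its co-receptor Gfra1 on the tip cells. Progenitors that receive Wnt9b from the bud switch on Wnt4 and form the epithelium of the nephron. Stromal cells surround both compartments and are marked by Foxd1. Progenitors and stroma do not descend from the Hoxb7-expressing lineage.

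Six2 lies on mouse chromosome 17 (85684277 to 85688274, minus strand, GRCm38), and its neighbour Six3, best known for its part in forebrain and eye development, lies 54974 bases away on the opposite strand. Both genes, and Hoxd12 on chromosome 2, were near 0 in libraries 4 and 5 and high in libraries 6 and 7. The windows from 250 bases before to 50 bases after their RefSeq starts are shown because these 3 genes have few or no reads outside libraries 6 and 7. Capitals mark the GC box GGGCGG and the CCAAT box CCAAT, each on either strand.

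Six2 (GRCm38.p6, chr17:85688205-85688504, minus strand): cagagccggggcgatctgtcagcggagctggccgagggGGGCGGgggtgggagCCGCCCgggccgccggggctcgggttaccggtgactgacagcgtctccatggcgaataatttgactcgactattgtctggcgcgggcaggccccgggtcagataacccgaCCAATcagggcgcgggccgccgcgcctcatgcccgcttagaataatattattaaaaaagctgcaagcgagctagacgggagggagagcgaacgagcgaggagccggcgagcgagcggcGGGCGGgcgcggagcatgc
Six3 (GRCm38.p6, chr17:85620584-85620883, plus strand): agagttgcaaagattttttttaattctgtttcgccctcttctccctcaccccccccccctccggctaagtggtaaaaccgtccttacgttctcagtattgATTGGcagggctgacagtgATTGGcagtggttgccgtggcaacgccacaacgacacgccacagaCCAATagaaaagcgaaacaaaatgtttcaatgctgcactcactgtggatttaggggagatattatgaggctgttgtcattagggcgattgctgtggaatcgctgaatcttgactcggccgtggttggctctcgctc
Hoxd12 (GRCm38.p6, chr2:74674763-74675062, plus strand): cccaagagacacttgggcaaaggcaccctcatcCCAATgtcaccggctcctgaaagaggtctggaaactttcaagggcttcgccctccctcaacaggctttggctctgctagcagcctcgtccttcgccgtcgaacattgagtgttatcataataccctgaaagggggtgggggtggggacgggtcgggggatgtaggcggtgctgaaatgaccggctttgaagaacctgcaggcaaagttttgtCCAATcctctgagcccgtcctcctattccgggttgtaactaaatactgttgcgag

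The Six2 window held 3 GC boxes and 1 CCAAT box, the Six3 window 3 CCAAT boxes, and the Hoxd12 window 2 CCAAT boxes. Across 32851 RefSeq promoter windows of this length, 35.7% held a GC box and 37.4% a CCAAT box on either strand. The TATA box TATAAA, present in 13.6% of windows, and the site TCAGGTT, which Six2 and its relatives can bind, present in 4.07%, were not found in these 3 windows on either strand.

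Total counts were 21906619 and 23761716 in libraries 6 and 7, against 16293803 and 21136808 in libraries 4 and 5, with 16813048 in library 2 and 18200456 to 27475859 in the controls. CPM values below follow scaling of library sizes by TMM, which sets the bulk of genes equal between libraries. Libraries 6 and 7 differed from each other by 29.2 times the sampling noise, similar to the 28.8 to 40.2 times between controls. Libraries 4 and 5 differed by only 4.54 times that noise, and the 2 pairs differed by 198 to 245 times. All these differences exceeded sampling noise. This measure does not show whether libraries 4 and 5 came from separate RNA samples or separate embryos, and the 4 libraries were kept as labelled. Cep120 itself had 13.1 and 16.4 CPM in libraries 6 and 7 and 19.5 and 21.2 CPM in libraries 4 and 5, against 7.86 CPM in library 2 and 6.40 to 10.6 CPM in the controls, so its RNA was not lower than in the controls in any of the 4.

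A gene was called set apart where the lower library of one pair was at least 2-fold above the higher library of the other. Of 13652 protein-coding genes with at least 10 counts in at least 2 of the 4 libraries, 1845 were set apart with higher values in libraries 6 and 7 (13.51%), and 1253 with lower values (9.18%). These shares are the reference for the counts of list and family members below. The median log2 difference over all these genes was -0.01, and the quartiles were -0.59 and 0.70. When CPM of the library total was used without TMM, the median became 0.16 and the split 2214 higher to 965 lower. Without library 7, the number of genes lower in library 6 reached 1980. Of the 1845 genes, 551 passed the count filter only through libraries 6 and 7, and of the 1253 genes, 69 passed only through libraries 4 and 5.

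Library 2 and the 3 controls give a reference for the set-apart genes. In 1269 of the 1845 higher genes, libraries 6 and 7 were also at least 2-fold above all 4 of these libraries, and in 16 genes libraries 4 and 5 were at least 2-fold below all 4. In 558 of the 1253 lower genes, libraries 6 and 7 were at least 2-fold below all 4, and in 134 libraries 4 and 5 were at least 2-fold above all 4. In 1269 of the 1845 higher genes, libraries 6 and 7 thus stood away from the comparison libraries. The count of 16 cannot be weighed evenly against this. In the 551 higher genes that passed the filter only through libraries 6 and 7, libraries 4 and 5 each had fewer than 10 counts. They therefore had little room to lie 2-fold below libraries that also held few reads. The 2 counts were not made without these 551 genes.

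**Figure D1:**
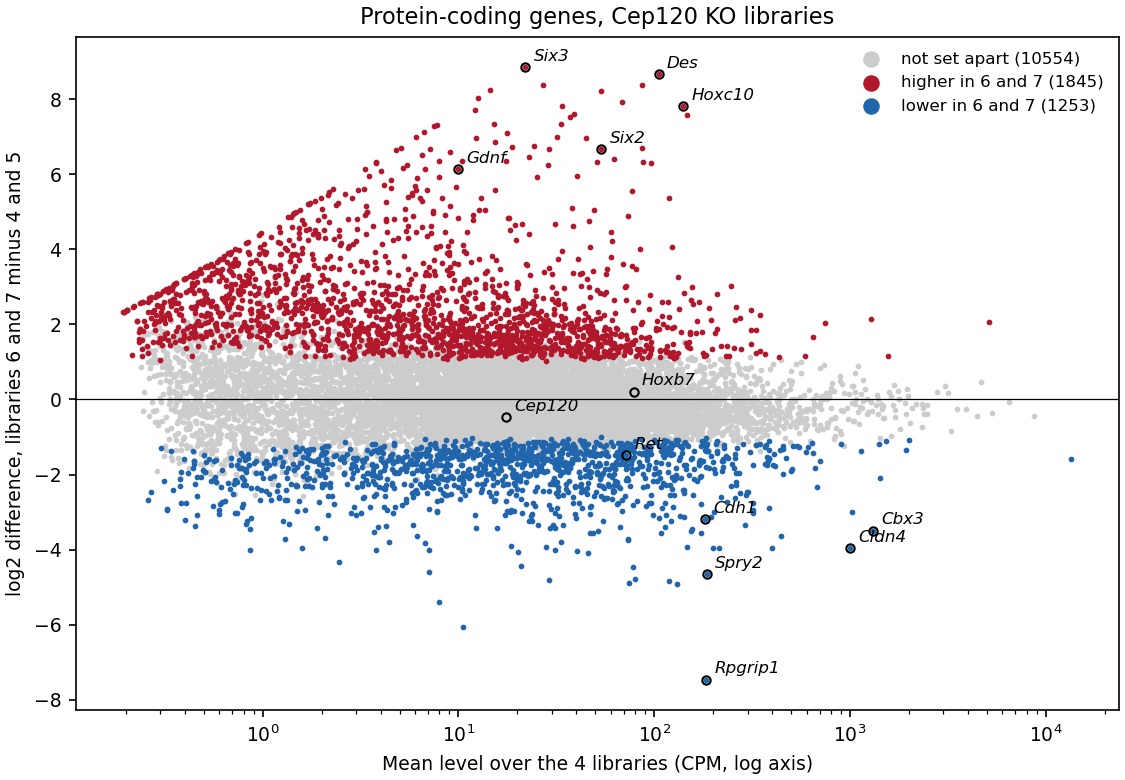
Log2 difference (libraries 6 and 7 minus libraries 4 and 5) of each protein-coding gene against its mean level over the 4 libraries in CPM on a log axis; red points are the 1845 genes set apart with higher values in libraries 6 and 7, blue points the 1253 with lower values, grey points the rest. Named genes are circled; Hoxb7 and Cep120 lie near 0 among the grey points.

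The 4 genes that mark nephron progenitors moved with the division. Six2, which was used for it, had 127 and 86.1 CPM in libraries 6 and 7 against 0.852 and 1.03 CPM in libraries 4 and 5. Osr1, an early factor of the kidney mesenchyme on chromosome 12 (9570116 to 9581500), had 202 and 142 CPM in libraries 6 and 7 against 0.426 and 0.410 CPM in libraries 4 and 5. Eya1, the phosphatase and co-activator that works with Six2 and its relatives (chromosome 1, 14168954 to 14310235), had 106 and 108 CPM in libraries 6 and 7 against 0.213 and 0.328 CPM in libraries 4 and 5. In each of these 3 genes the pairs were far apart, and libraries 4 and 5 were, like the controls, at or below 1.44 CPM. Meox1, a homeobox gene of the cap mesenchyme (chromosome 11, 101877510 to 101894374), had 73.4 and 60.3 CPM in libraries 6 and 7 against 0.479 and 0.205 CPM in libraries 4 and 5. Library 2 had between 0 and 1.18 CPM of these 4 genes, and no control exceeded 1.44 CPM. The ratio of pair means was 113 for Six2, 412 for Osr1, 395 for Eya1 and 195 for Meox1.

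Most members of the progenitor list, but not all, were higher as well. Of its 26 genes, these 4 included, 25 passed the filter, 10 of them only through libraries 6 and 7, and 21 were set apart, all with higher values in those libraries. The median log2 difference was 6.25, or 6.17 with the 2 members without a read in libraries 4 and 5 set at a floor of 3 counts per library, beside -0.01 over all genes. Without Six2, Osr1, Eya1 and Meox1, 17 of 21 were higher and the median was 5.24. Among the 15 members that did not pass through libraries 6 and 7 alone, 11 were higher with a median of 3.52, and without those 4 genes 9 of 13 were higher with a median of 2.70. The size of the median thus rests in part on genes with almost no reads in libraries 4 and 5. Wt1, a zinc-finger regulator of progenitors and later of podocytes, had 92.1 and 62.2 CPM in libraries 6 and 7 against 0.266 and 0.328 CPM in libraries 4 and 5. Sall1, whose loss halts kidney formation, had 81.6 and 66.3 CPM in libraries 6 and 7 against 0.160 and 0.533 CPM in libraries 4 and 5. Crym, a thyroid-hormone-binding protein enriched in the cap mesenchyme, had 201 and 147 CPM in libraries 6 and 7 against 2.29 and 1.80 CPM in libraries 4 and 5. Uncx, a homeobox gene, had 15.03 and 11.7 CPM in libraries 6 and 7 and no read in libraries 4 and 5, which makes it at least 94.5-fold higher by the same floor.

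The other 4 members that passed were not set apart. Cited1, a marker of the least differentiated progenitors, had 50.8 and 33.1 CPM in libraries 6 and 7 and 28.1 and 23.9 CPM in libraries 4 and 5, within the 35.4 to 55.5 CPM of the controls or below them. Capn6 had 124 and 140 CPM in libraries 6 and 7, below the 216 and 211 CPM of libraries 4 and 5. Ncam1, a neural cell adhesion molecule of the mesenchyme, had 303 and 269 CPM in libraries 6 and 7 and 207 and 209 CPM in libraries 4 and 5. All 4 libraries were thus well above the 32.0 to 50.6 CPM of Ncam1 in the controls and the 25.7 CPM of library 2. Kctd15 had 30.9 and 23.8 CPM in libraries 6 and 7 and 20.7 and 26.3 CPM in libraries 4 and 5, so the pairs overlapped. In bulk RNA, fewer cells of a type and less RNA per cell cannot be told apart.

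**Figure D2:**
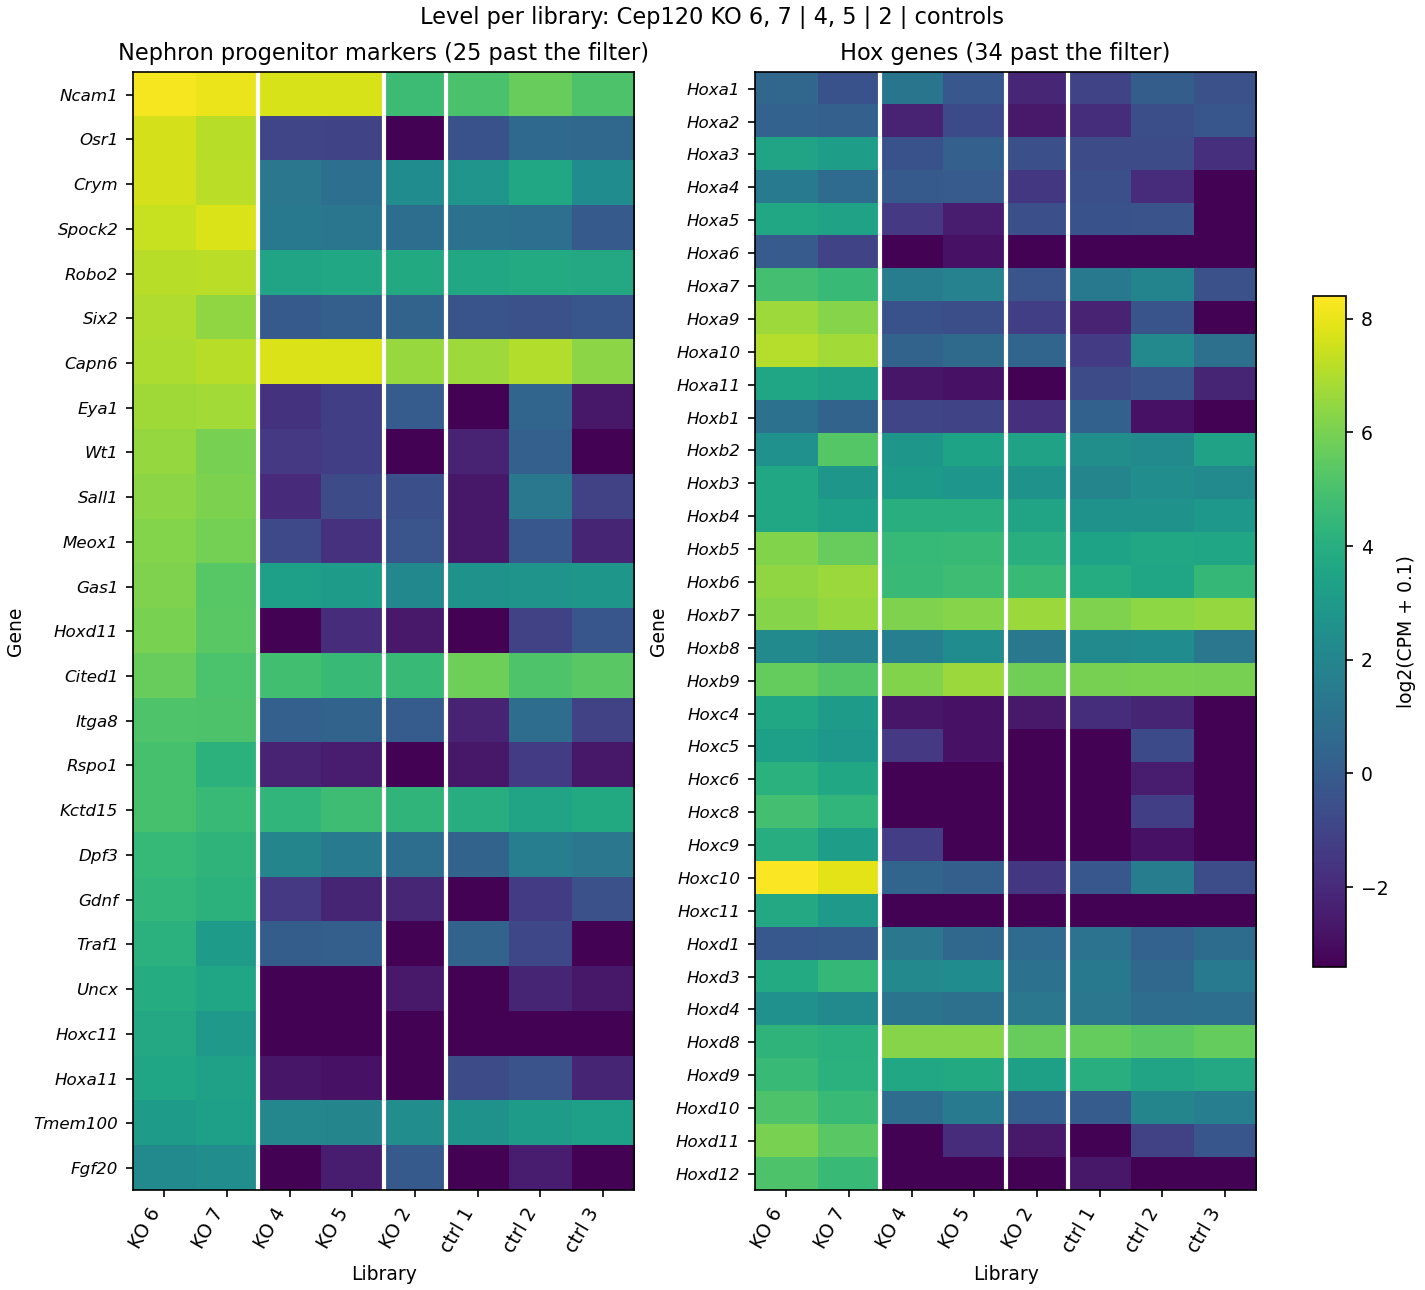
Level of the 25 nephron progenitor markers (left) and 34 Hox genes (right) that passed the count filter, in each library, as log2(CPM + 0.1), with white lines between Cep120 KO libraries 6 and 7, libraries 4 and 5, library 2 and the 3 controls. Most progenitor genes and the Hoxc genes are bright in libraries 6 and 7 only, while Cited1, Capn6, Hoxb7 and Hoxb9 are bright in all libraries.

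The genes with wide gaps outside the progenitor list included transcription factors, a filament protein and secreted Wnt regulators. Six3 had 46.4 and 41.5 CPM in libraries 6 and 7 and no read in libraries 4 and 5, at least 311-fold higher by the floor of 3 counts per library. Six3os1, the antisense gene beside it, had 6.44 and 7.38 CPM in libraries 6 and 7 and no read in libraries 4 and 5. The deposited counts do not mark strand, so any reads in a shared stretch cannot be assigned to either gene here. Des, the intermediate filament of muscle and some mesenchymal cells, had 223 and 197 CPM in libraries 6 and 7 against 0.533 and 0.328 CPM in libraries 4 and 5. Shisa3, encoding an inhibitor of Wnt and FGF receptors, had 142 and 130 CPM in libraries 6 and 7 against 0.639 and 0.328 CPM in libraries 4 and 5. Frzb, a secreted Wnt antagonist, had 29.3 and 31.3 CPM in libraries 6 and 7 against 0.107 and 0.0820 CPM in libraries 4 and 5. Eya4 had 28.9 and 19.6 CPM in libraries 6 and 7 and a single read in libraries 4 and 5, a ratio of 1033 with a 95% counting interval of 185 to 40820. None of these genes reached 4 CPM in library 2 or a control.

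Most Hox genes, which set position along the body axis, were higher in libraries 6 and 7. Of 34 Hox genes that passed the filter, 11 of them only through libraries 6 and 7, 23 were set apart with higher values and 1 with lower values. Over all genes, 13.51% were higher and 9.18% lower. The median log2 difference was 2.26, and 4 of the 34 genes had no read in libraries 4 and 5. All 7 Hoxc genes that passed were higher, and the 9 Hoxc genes summed to 419 and 306 CPM in libraries 6 and 7 against 1.92 and 1.11 CPM in libraries 4 and 5. Hoxc10 made up most of this, with 322 and 240 CPM in libraries 6 and 7 against 1.28 and 1.03 CPM in libraries 4 and 5. Hoxd11, which with Hoxa11 is required for the kidney mesenchyme, had 65.9 and 41.6 CPM in libraries 6 and 7 against 0 and 0.164 CPM in libraries 4 and 5. Hoxd12, next to it, had 33.8 and 24.4 CPM in libraries 6 and 7 and no read in libraries 4 and 5, at least 205-fold higher by that floor.

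The clusters did not move as wholes. In the Hoxa cluster 8 of 10 genes that passed were higher, in the Hoxd cluster 5 of 8 were higher and 1 lower, and in the Hoxb cluster 3 of 9 were higher. Hoxd8, the lower gene, had 19.0 and 17.1 CPM in libraries 6 and 7 against 75.8 and 76.8 CPM in libraries 4 and 5, and 41.1 to 49.4 CPM in the controls. Hoxb7, the gene whose regulatory sequence drives the sorted transgene, had 77.3 and 91.2 CPM in libraries 6 and 7 and 69.4 and 76.2 CPM in libraries 4 and 5, against 99.4 CPM in library 2 and 69.6 to 93.5 CPM in the controls. Its level in each of the 4 libraries lay within or beside the range of the controls, and it was not set apart.

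Most trunk and lineage genes of the ureteric bud were lower in libraries 6 and 7, and fewer tip genes were. Of 21 trunk and collecting duct genes that passed, 16 were set apart with lower values and 1 with higher values, with a median log2 difference of -1.94. Of 22 lineage and epithelial identity genes, 14 were lower and 1 higher, with a median of -1.51. Of 22 tip genes, 6 were lower and 3 higher, with a median of -1.06. Summed over each list, the trunk genes gave 1267 and 1687 CPM in libraries 6 and 7 against 3682 and 3856 CPM in libraries 4 and 5, and 3551 to 3763 CPM in the controls. The trunk RNA was thus reduced in sum but not lost, while single members were near 0: Upk3a, a urothelial plaque protein, had 0 and 0.254 CPM in libraries 6 and 7 against 1.70 and 4.39 CPM in libraries 4 and 5.

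Ligand and receptor of the GDNF pathway moved in opposite directions. Gdnf had 21.5 and 18.0 CPM in libraries 6 and 7 against 0.266 and 0.123 CPM in libraries 4 and 5, and no control exceeded 0.613 CPM. Ret had 34.5 and 41.2 CPM in libraries 6 and 7 against 102 and 109 CPM in libraries 4 and 5, with 71.8 to 105 CPM in the controls. Wnt11, a tip ligand induced by Ret signalling, had 5.33 and 6.94 CPM in libraries 6 and 7 against 26.7 and 27.6 CPM in libraries 4 and 5, with 23.2 to 29.8 CPM in the controls. In Ret and Wnt11 libraries 4 and 5 were close to the controls, and libraries 6 and 7 were below every other library shown. Spry2, a feedback inhibitor of receptor tyrosine kinases, had 12.3 and 16.2 CPM in libraries 6 and 7 against 360 and 352 CPM in libraries 4 and 5, the widest gap among the lower genes of this pathway. Dusp6, a phosphatase induced by ERK signalling, had 190 and 196 CPM in libraries 6 and 7 against 570 and 553 CPM in libraries 4 and 5. Etv4 had 203 and 168 CPM in libraries 6 and 7 and 174 and 190 CPM in libraries 4 and 5, so this target of Ret signalling overlapped between the pairs.

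Over the 22 GDNF and FGF pathway genes that passed the filter, 9 were higher, 5 lower and 8 not set apart. The filter was passed only through libraries 6 and 7 by 5 of the 22. Fgf10, a ligand made by mesenchyme, had 17.1 and 15.2 CPM in libraries 6 and 7 against 0.266 and 0.328 CPM in libraries 4 and 5. Fgf20, a ligand that nephron progenitors make, had 4.47 and 5.19 CPM in libraries 6 and 7 and 2 reads in libraries 4 and 5, a ratio of 105 with a counting interval of 28.7 to 868. Fgfr1, a receptor the mesenchyme depends on, had 214 and 142 CPM in libraries 6 and 7 against 43.0 and 43.6 CPM in libraries 4 and 5. Fgfr2, the main FGF receptor of the bud, had 35.4 and 25.9 CPM in libraries 6 and 7 against 101 and 99.5 CPM in libraries 4 and 5. The pairs did not overlap in either receptor, and the directions were opposite.

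Epithelial adhesion genes were among those with the widest gaps of the bud lists. Cldn4, a tight-junction claudin, had 152 and 94.5 CPM in libraries 6 and 7 against 1880 and 1855 CPM in libraries 4 and 5. Cdh1, which encodes E-cadherin, had 20.2 and 61.9 CPM in libraries 6 and 7 against 305 and 338 CPM in libraries 4 and 5. Cdh16, the kidney-specific cadherin, had 57.6 and 84.8 CPM in libraries 6 and 7 against 549 and 580 CPM in libraries 4 and 5. The controls lay between the pairs in each of these genes, with 850 to 1066 CPM of Cldn4, 107 to 146 CPM of Cdh1 and 156 to 230 CPM of Cdh16. Part of each gap therefore lies above the controls, in libraries 4 and 5. Krt19, a simple-epithelium keratin, showed the same order, with 13.8 and 19.6 CPM in libraries 6 and 7, 97.1 and 112 CPM in libraries 4 and 5, and 28.8 to 48.0 CPM in the controls. For Cldn4 this order depends on the mouse line. The series' other line, Pkd1 KO and its controls, had 98.4 to 212 CPM of Cldn4, near the level of libraries 6 and 7. That line had 138 to 173 CPM of Cdh1 and 149 to 207 CPM of Cdh16, above libraries 6 and 7.

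Pax2 and Gata3 show the limits of lineage genes. Pax2, a transcription factor of both bud and progenitors, had 61.9 and 54.6 CPM in libraries 6 and 7 against 22.8 and 27.0 CPM in libraries 4 and 5. Gata3, which the bud lineage needs, had 153 and 243 CPM in libraries 6 and 7 and 476 and 522 CPM in libraries 4 and 5; the gap was under 2-fold and Gata3 was not set apart. Sox9, a tip factor, had 20.5 CPM in library 6 and 101 CPM in library 7, against 122 and 130 CPM in libraries 4 and 5.

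**Figure D3:**
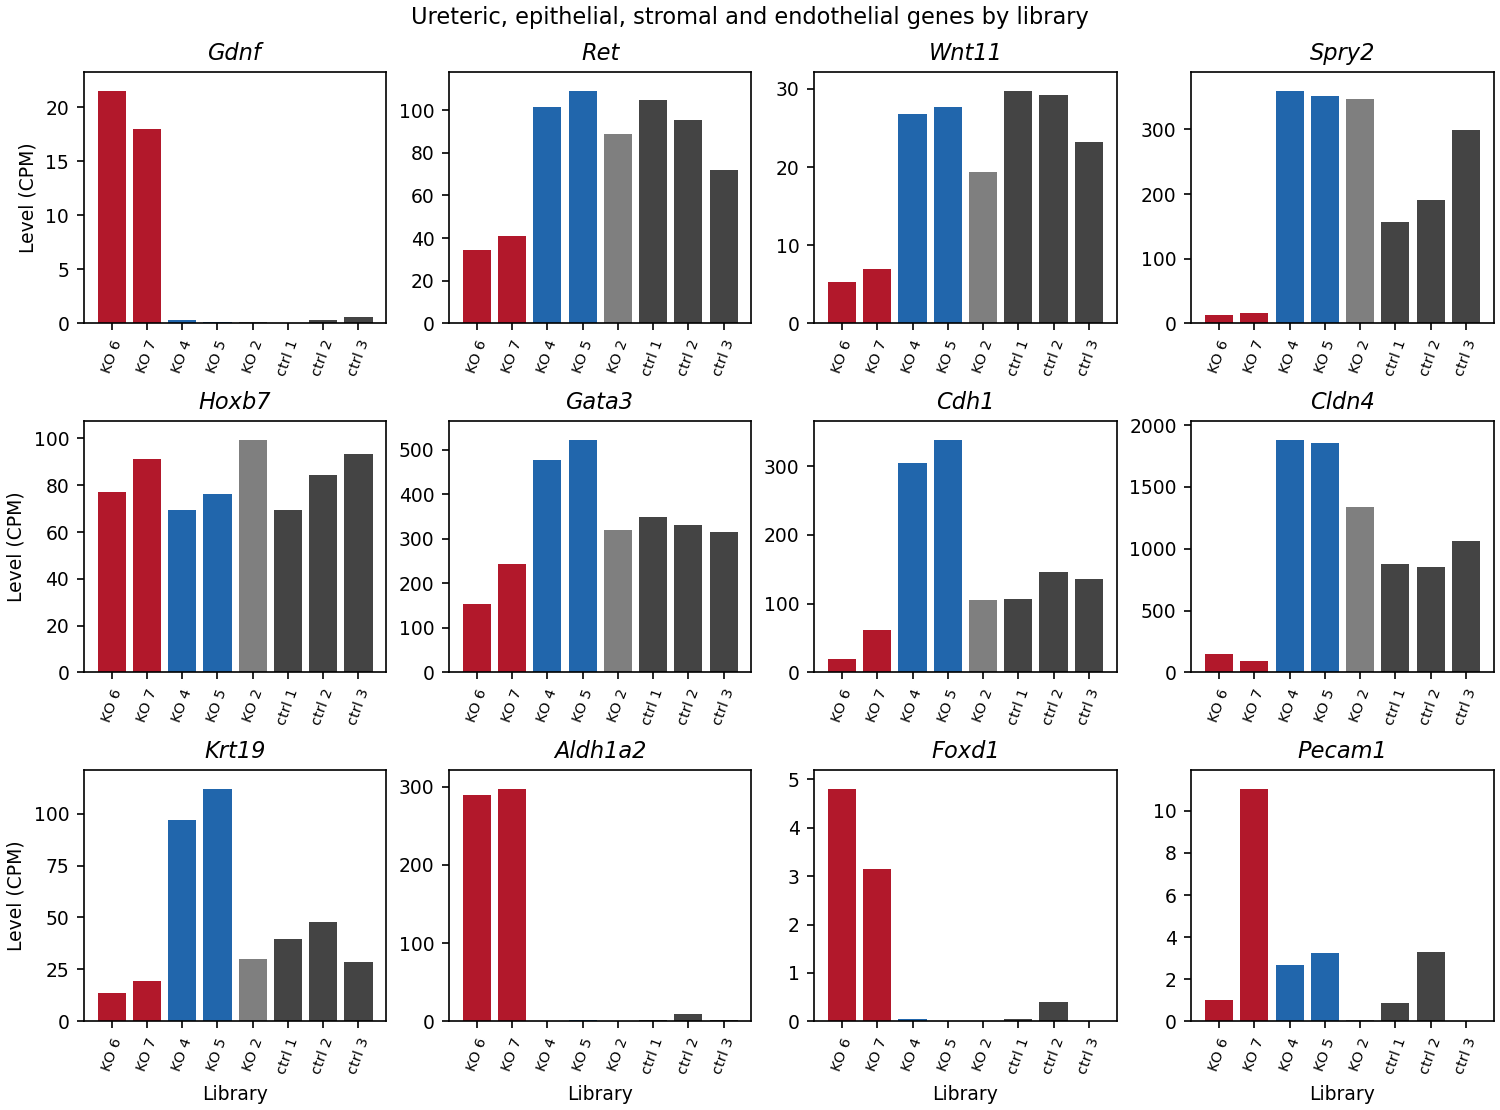
Level in CPM of 12 genes in Cep120 KO libraries 6 and 7 (red), 4 and 5 (blue) and 2 (light grey) and in controls 1 to 3 (dark grey); each bar is 1 library and each axis starts at 0. Gdnf and Aldh1a2 are high in libraries 6 and 7, Ret, Wnt11, Cdh1 and Cldn4 are lower there than in libraries 4 and 5, Hoxb7 is similar in all, and Pecam1 is high in library 7.

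Markers of early nephron structures were mixed. Of 22 that passed, 9 were higher, 2 lower and 11 not set apart, with a median log2 difference of 0.57. The filter was passed only through libraries 6 and 7 by 4 of the 22. Wnt4, the signal that starts nephron formation, had 41.7 and 31.1 CPM in libraries 6 and 7 against 6.45 and 5.82 CPM in libraries 4 and 5, and at most 1.56 CPM in the controls. Foxc2, a forkhead factor of nephron precursors, had 13.49 and 8.37 CPM in libraries 6 and 7 against 0.160 and 0.164 CPM in libraries 4 and 5. Fgf8 had 1.97 and 3.63 CPM in libraries 6 and 7 and no read in libraries 4 and 5, at least 19.8-fold higher by the floor. Jag1, a Notch ligand shared with the bud, had 11.8 and 9.42 CPM in libraries 6 and 7 against 50.1 and 57.1 CPM in libraries 4 and 5.

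Most stromal genes on the list were also higher in libraries 6 and 7, at levels that varied widely among the markers. Of 28 stromal genes, 20 were set apart with higher values and 2 with lower values, 8 of the 28 passed the filter only through libraries 6 and 7, and the median log2 difference was 2.25. The list summed to 742 and 712 CPM in libraries 6 and 7 against 104 and 113 CPM in libraries 4 and 5, and 55.5 to 175 CPM in the controls. Aldh1a2, which makes retinoic acid in mesenchyme, had 290 and 297 CPM in libraries 6 and 7 against 1.12 and 1.85 CPM in libraries 4 and 5. Meis2, a homeobox factor of the stroma, had 157 and 127 CPM in libraries 6 and 7 against 5.01 and 4.39 CPM in libraries 4 and 5. Meis1, its relative, had 63.9 and 55.4 CPM in libraries 6 and 7 against 1.97 and 2.54 CPM in libraries 4 and 5. These 3 genes were abundant in libraries 6 and 7, whereas Foxd1 and Pdgfra were low. Foxd1 had 4.80 and 3.15 CPM in libraries 6 and 7 and a single read in libraries 4 and 5, a ratio of 169 with a counting interval of 30.1 to 6717. Pdgfra, a receptor of interstitial cells, had 1.29 and 1.85 CPM in libraries 6 and 7 and 0.639 and 0.861 CPM in libraries 4 and 5, and was not set apart. Vcan, a matrix proteoglycan, had 188 and 156 CPM in libraries 6 and 7 against 1.44 and 1.68 CPM in libraries 4 and 5.

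Lists of blood and vessel cells differed from each other. Endothelial markers passed the filter in 14 cases, of which 2 were set apart, both higher, beside 13.51% of all genes. Ramp2 had 68.9 and 51.0 CPM in libraries 6 and 7 against 3.57 and 5.25 CPM in libraries 4 and 5. Plvap had 7.37 and 6.59 CPM in libraries 6 and 7 against 2.24 and 2.71 CPM in libraries 4 and 5. Pecam1 had 1.04 CPM in library 6 and 11.0 CPM in library 7, against 2.66 and 3.24 CPM in libraries 4 and 5, so library 7 alone was high. The endothelial list summed to 96.6 and 171 CPM in libraries 6 and 7 against 54.6 and 62.7 CPM in libraries 4 and 5. Erythroid genes were higher in 10 of 12 cases, with a median log2 difference of 2.63. The filter was passed only through libraries 6 and 7 by 4 of these 12. The erythroid list summed to 1137 and 746 CPM in libraries 6 and 7 against 126 and 141 CPM in libraries 4 and 5. The controls held 515 to 7246 CPM of erythroid RNA with at most 0.736 CPM of Six2, and library 2 held 5.63 CPM. Of 15 macrophage and leukocyte markers that passed, 4 of them only through libraries 6 and 7, there were 9 higher and 1 lower. Their median log2 difference was 1.89. They summed to 49.5 and 50.2 CPM in libraries 6 and 7 against 26.3 and 26.9 CPM in libraries 4 and 5, below the 100 to 111 CPM of the controls. Of the neural crest markers, Sox10 and Foxd3 had no read in any of these libraries. The part of endothelial, blood and macrophage RNA in the differences was not tested.

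Other signalling lists were mixed, with single members far apart. Of 23 Wnt pathway genes that passed, 3 of them only through libraries 6 and 7, there were 5 higher and 8 lower. Their median log2 difference was 0.23. Rspo3, a secreted enhancer of Wnt signalling, had 77.3 and 57.1 CPM in libraries 6 and 7 against 0.107 and 0.328 CPM in libraries 4 and 5. Znrf3, which removes Wnt receptors from the cell surface, had 24.0 and 25.6 CPM in libraries 6 and 7 against 277 and 292 CPM in libraries 4 and 5. The secreted enhancer was thus near 0 in libraries 4 and 5, while the receptor regulator was lower in libraries 6 and 7 than in any control, which had 202 to 231 CPM.

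Of 17 Notch pathway genes 4 were higher and 3 lower, and of 21 BMP and TGF-beta genes 5 were higher and 2 lower, with medians of 0.21 and 0.35. The filter was passed only through libraries 6 and 7 by 1 of the 17 and 4 of the 21. Over all genes, 13.51% were higher and 9.18% lower. Heyl, a Notch target of mesenchymal and vascular cells, had 34.9 and 40.4 CPM in libraries 6 and 7 against 1.33 and 1.48 CPM in libraries 4 and 5. Notch2, the receptor needed for the proximal nephron, had 22.0 and 21.6 CPM in libraries 6 and 7 against 135 and 150 CPM in libraries 4 and 5, with 38.6 to 62.0 CPM in the controls. Bmper, a secreted BMP regulator, had 43.7 and 52.6 CPM in libraries 6 and 7 against 0.426 and 0.287 CPM in libraries 4 and 5. Bmp4, a ligand of the mesenchyme around the bud, had 17.7 and 12.7 CPM in libraries 6 and 7 against 2.61 and 3.36 CPM in libraries 4 and 5. The pairs did not overlap in any of these 4 genes.

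Of the remaining lists, 13 of 28 collagen, laminin and matrix genes were higher and 4 lower, 1 of 19 glycolysis genes was higher and 5 lower, and 4 of 13 Hippo-YAP targets were lower with none higher. Among the 28 collagen, laminin and matrix genes, 3 passed the filter only through libraries 6 and 7. Of 13 mitochondrially encoded genes none was set apart. Ccn1, a YAP target, had 257 and 244 CPM in libraries 6 and 7 against 631 and 633 CPM in libraries 4 and 5, and 37.5 to 47.3 CPM in the controls. Slc2a1, the main glucose transporter of many cells, had 69.8 and 80.9 CPM in libraries 6 and 7 against 170 and 177 CPM in libraries 4 and 5, and 281 to 317 CPM in the controls. Both pairs were on the same side of the controls in these 2 genes. Of 11 cartilage and muscle markers 6 were higher and 1 lower, and 2 of the 11 passed the filter only through libraries 6 and 7. Col2a1, a cartilage collagen, had 71.0 and 91.7 CPM in libraries 6 and 7 against 11.1 and 13.0 CPM in libraries 4 and 5, while Myod1 had no read in these libraries. Of 9 neural markers 4 were higher and 2 lower, and of 2 adrenal and gonad markers and 3 platelet markers that passed, 1 of each was higher.

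Lists of basic cell functions lay near 0 between the pairs, but not all lay near the controls. The median log2 difference was -0.14 over 24 cell division genes, -0.11 over 24 DNA replication genes, -0.07 over 30 ribosomal protein genes and -0.11 over 28 primary cilium genes. Against the control mean, the medians in libraries 4 to 7 were -1.21 to -1.04 for ribosomal protein genes and 0.66 to 0.84 for primary cilium genes. They were 0.16 to 0.41 for cell division genes and -0.50 to -0.14 for DNA replication genes. In library 2 all of these medians lay between -0.16 and 0.11. Of 26 centriole and centrosome genes that passed, 5 were set apart, all with higher values in libraries 6 and 7. That number is not far from the 13.51% of all genes that were higher, and the list median was 0.23. Against the control mean, the median of this list was 1.26 to 1.48 in libraries 4 to 7 and -0.10 in library 2. Pcnt, a scaffold of the pericentriolar material, had 36.1 and 39.7 CPM in libraries 6 and 7 against 9.06 and 12.02 CPM in libraries 4 and 5, and 3.37 to 3.64 CPM in the controls. Both pairs were thus above the controls in Pcnt. Of 29 p53 targets, 1 was higher and 5 lower, with a median log2 difference of -0.31, beside 13.51% higher and 9.18% lower over all genes. Among the 5 lower targets, Tnfrsf10b had 3.08 and 4.20 CPM in libraries 6 and 7 against 29.9 and 31.9 CPM in libraries 4 and 5. Pmaip1, also lower, had 1.15 and 2.67 CPM in libraries 6 and 7 against 11.1 and 9.68 CPM in libraries 4 and 5. The 1 higher target was Bbc3, which encodes the pro-apoptotic protein PUMA. It had 15.6 and 8.30 CPM in libraries 6 and 7 against 2.02 and 1.72 CPM in libraries 4 and 5.

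Immediate early and heat shock genes went both ways, with 4 of 21 higher and 6 lower. Junb had 56.7 and 50.7 CPM in libraries 6 and 7 against 6.45 and 6.77 CPM in libraries 4 and 5, while Fosb had 6.41 and 4.36 CPM in libraries 6 and 7 against 52.6 and 57.6 CPM in libraries 4 and 5. Hspa1a, a heat-shock chaperone, had 100 and 158 CPM in libraries 6 and 7 against 11.2 and 9.27 CPM in libraries 4 and 5. The list summed to 1716 and 2074 CPM in libraries 6 and 7 and to 1827 and 1915 CPM in libraries 4 and 5, against 363 CPM in library 2 and 258 to 306 CPM in the controls.

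**Figure D4:**
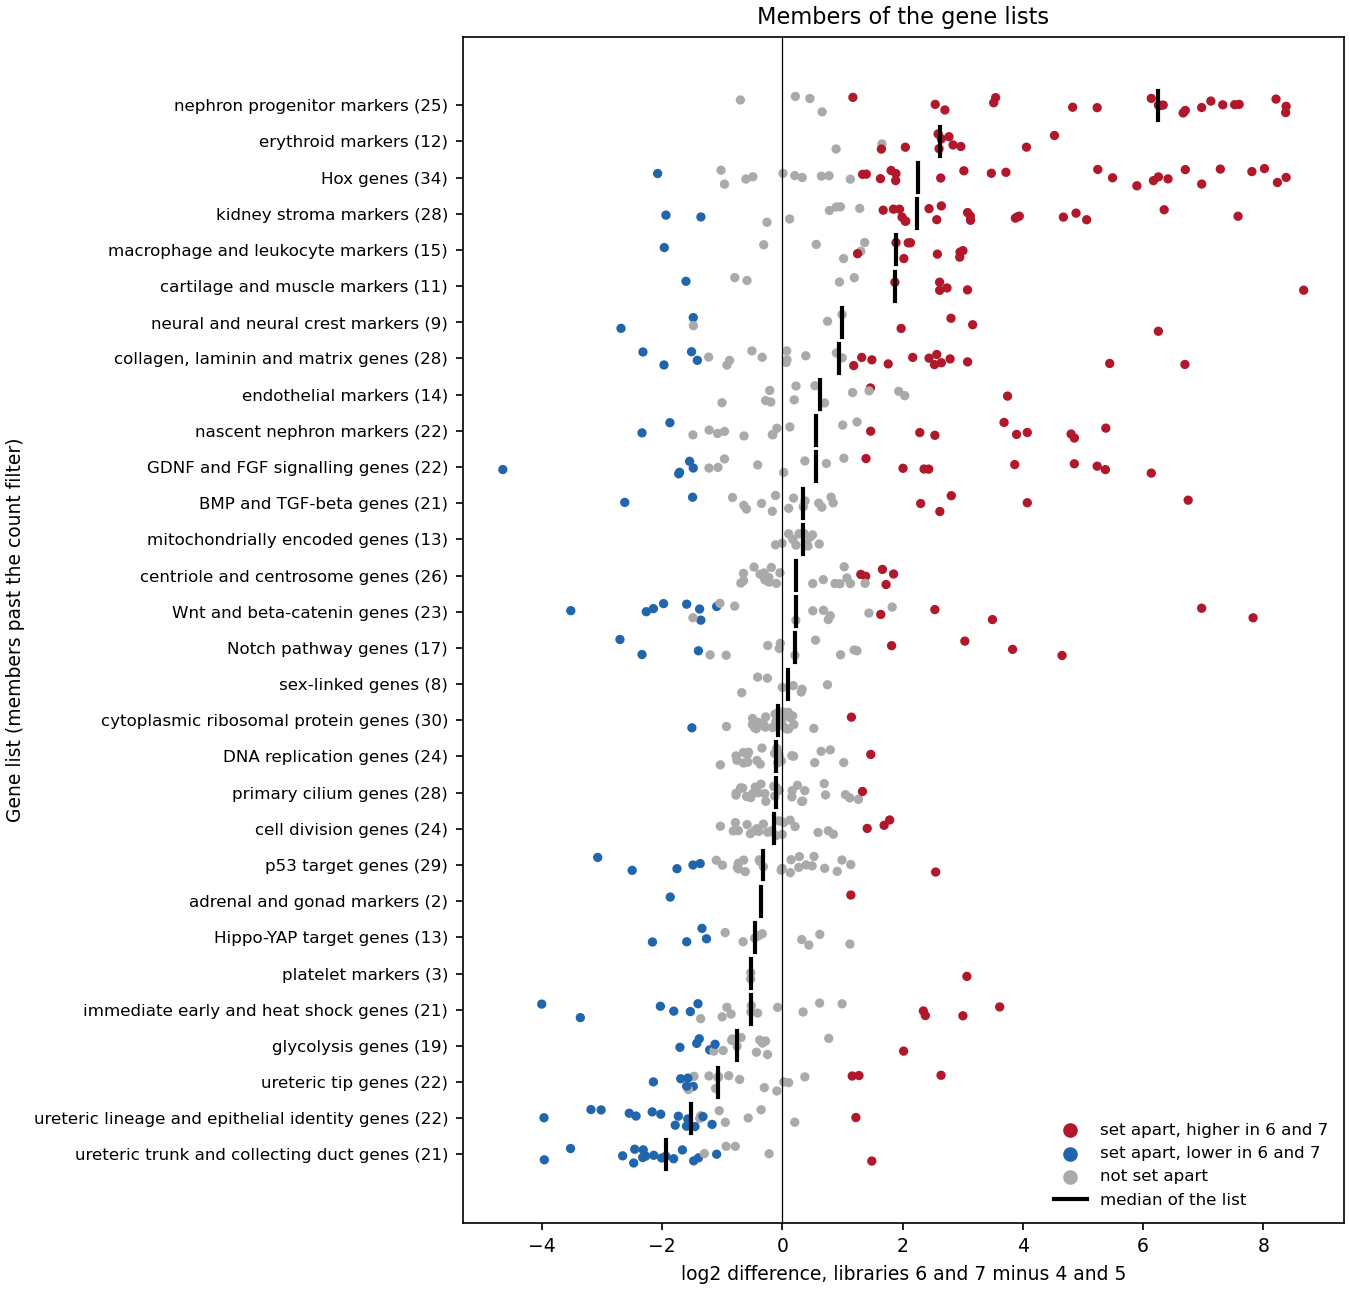
Log2 difference (libraries 6 and 7 minus libraries 4 and 5) of each member of 30 gene lists that passed the count filter; red and blue points are set apart with higher or lower values in libraries 6 and 7, grey points are not, and black bars are list medians. The progenitor list has the highest median, at 6.25, and the ureteric trunk list the lowest, at -1.94.

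Of the 15 named genes with the widest gaps in the other direction, Spry2 alone belongs to any of the 30 lists. Rpgrip1, known for its role in photoreceptor cilia, had 1.97 and 1.97 CPM in libraries 6 and 7 against 323 and 412 CPM in libraries 4 and 5, and 97.4 to 155 CPM in the controls. Nearly all of its counts belonged to a single transcript annotated for nonsense-mediated decay, Rpgrip1-217, with 1.24 and 1.54 CPM in libraries 6 and 7 against 322 and 412 CPM in libraries 4 and 5. Outside those 15, Cbx3, a heterochromatin protein found in most cells, had 216 and 211 CPM in libraries 6 and 7 against 2365 and 2453 CPM in libraries 4 and 5, and 3159 to 3892 CPM in the controls. Nup98, a nuclear pore component also outside them, had 27.7 and 24.4 CPM in libraries 6 and 7 against 278 and 291 CPM in libraries 4 and 5, and 171 to 186 CPM in the controls. Back among the 15, Paip1, a translation factor that binds the poly(A)-binding protein, had 25.1 and 26.7 CPM in libraries 6 and 7 against 401 and 407 CPM in libraries 4 and 5. Slc39a1, a zinc transporter, had 7.37 and 8.46 CPM in libraries 6 and 7 against 220 and 241 CPM in libraries 4 and 5. In each of these genes libraries 6 and 7 were also below library 2 and every control.

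Composition of the libraries moved with the pairs as well. Transcripts annotated as retained introns took 6.62% and 6.43% of transcript counts in libraries 6 and 7 against 4.48% and 4.51% in libraries 4 and 5, and 3.61% to 3.98% in the controls. Ribosomal RNA genes took 1.12% and 1.16% of counts in libraries 6 and 7 against 0.339% and 0.426% in libraries 4 and 5, and 0.960% to 2.05% in the controls. Libraries 6 and 7 had at least 10 counts in 13580 and 13775 protein-coding genes, against 12583 and 12891 in libraries 4 and 5. The TMM factors were 1.28 and 1.32 in libraries 6 and 7 against 1.15 and 1.15 in libraries 4 and 5, and 0.863 to 0.896 in the controls.

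Genes rich in G and C were higher in libraries 6 and 7. In the 10% of genes with the highest GC content of the longest transcript, median 59.7%, the median log2 difference was 0.82, and in the 10% with the lowest, median 39.7%, it was -0.18. The set-apart genes had a median GC content of 53.5% where they were higher and 49.3% where they were lower, against 49.9% over all genes. Transcript length showed no such trend, with medians of 3271 and 3465 bases in the higher and the lower genes. With GC and length trends removed, 1610 genes were higher and 1308 lower, the progenitor list had 21 set-apart members, and its median was 5.67. The parts of GC content, retained introns and ribosomal RNA in the other differences were not tested.

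**Figure D5:**
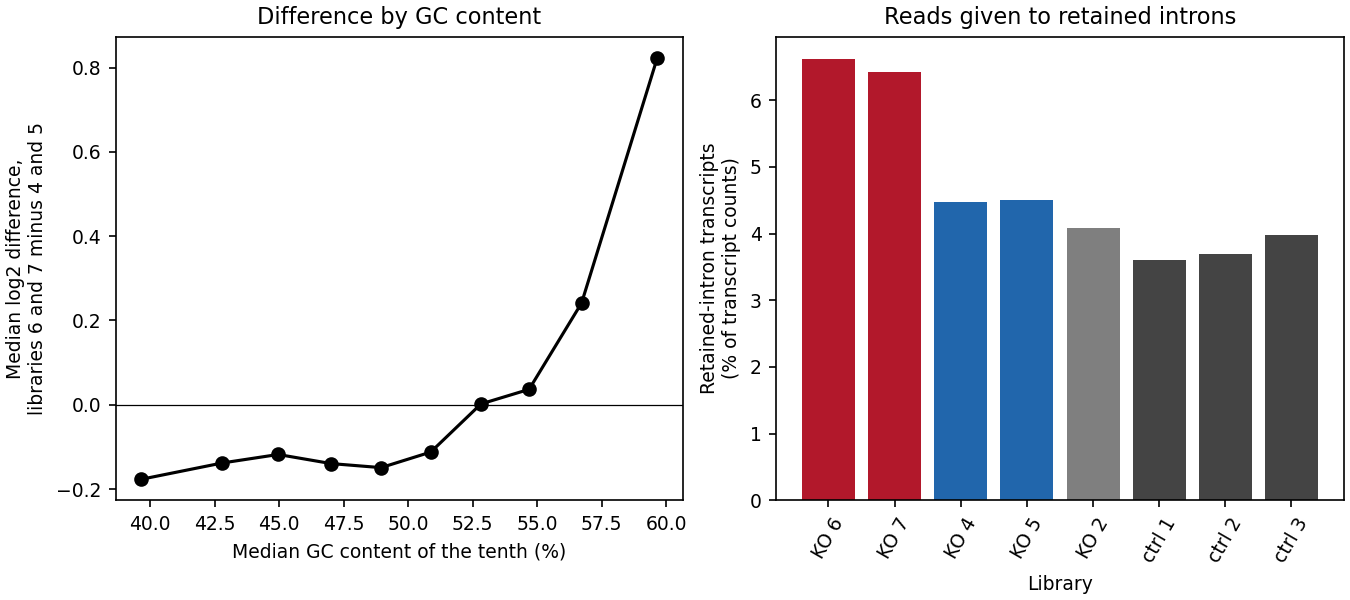
Left, median log2 difference (libraries 6 and 7 minus libraries 4 and 5) in 10 equal groups of genes by GC content in percent; right, share of transcript counts given to retained-intron transcripts in each library, with Cep120 KO libraries 6 and 7 in red, 4 and 5 in blue and 2 in light grey and controls in dark grey. The difference climbs to 0.82 in the highest group, and libraries 6 and 7 have the highest retained-intron shares.

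Of the sex-linked genes, Xist was higher in libraries 6 and 7, and no Y-linked gene that passed the filter was set apart. Xist, which is expressed from the inactive X chromosome of females, had 143 and 134 CPM in libraries 6 and 7 against 50.02 and 35.2 CPM in libraries 4 and 5, and 0 to 34.2 CPM in the controls. The Y-linked Ddx3y had 13.1 and 15.2 CPM in libraries 6 and 7 and 8.79 and 14.3 CPM in libraries 4 and 5, so each of the 4 libraries held RNA of both kinds. So did controls 1 and 2, with 34.2 and 20.1 CPM of Xist and 8.80 and 22.6 CPM of Ddx3y. Control 3 had 0 CPM of Xist and 32.7 CPM of Ddx3y. Library 2 had 0.524 CPM of Xist and 32.6 CPM of Ddx3y.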

How the data were processed

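RNA of GFP-sorted embryonic kidney cells was sequenced in 14 libraries, grouped by titles and genotype labels. The authors deposited estimated counts per gene and per transcript without normalization, and TPM values per gene (scaled by length and depth), per the file headers and values; the submitters' processing notes name DRAGEN and mm9 without a role, with aligner settings not given in the sources used. Of 55774 lines, 287 repeated a gene and were dropped; counts, of which 88.4% to 91.6% per library were whole, were rounded. Totals were 11347628 to 27967540 per library, and the counts carry no molecular identifiers, so intervals and floors cover counting error only.

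TMM and RLE factors came from edgeR 4.0.16 in R 4.3.3, over all 14 libraries, and all else from Python 3.11.15. Log2 values used a prior count of 2, scaled to library size. The call (a 2-fold gap between the pairs) has no test, and was tested only on simulated data for recovery of known changes. The likeness of libraries is the chi-square per degree of freedom over genes with at least 20 counts in the pair; 1 is sampling noise. Length, GC content and gene coordinates came from GENCODE release 21 for mouse (GRCm38) by Ensembl identifier, for 13642 of 13652 genes, and promoter windows from RefSeq (GRCm38.p6); these are not the submitters' build. Overlapping genes cannot be separated, since strand is not marked, and gene copies such as the globins may share reads.

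The libraries, their division, the 30 gene lists and the alternatives were chosen with earlier results of these data known. The genes named were Six2, Osr1, Eya1, Meox1 and Cep120; the 15 widest gaps in each direction among genes with a mean of at least 5 CPM; up to 5 set-apart members per list, or the 2 most abundant members where none was set apart; and Xist, Ddx3y and Eif2s3y. A gene in 2 lists counts under both. Values of some list members are not reported here. The subsets of the progenitor list were chosen after its values were seen. Other genes named, among them Hoxb7, Cited1, Capn6, Ncam1, Kctd15, Sall1, Crym, Ret, Etv4, Fgfr1, Fgfr2, Pax2, Gata3, Sox9, Pecam1, Pdgfra, Sox10, Foxd3, Hoxd8, Cbx3, Nup98, Jun, Tcf21, Myod1 and Six3os1, were chosen after their values were seen. Alternatives changed the scaling, filter, prior count, fold, unit and gene classes, removed GC and length trends, or left out a library.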

Additional observations from a re-analysis of the deposited data

Results flagged for a closer look

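Among the 5 Cep120 KO libraries, 7 values of named genes lay far from the nearest other library relative to the whole range. The cut flags about 1 in 20 groups of 5 values drawn from a single normal distribution, and 163 genes were looked at. Most of them, 142, were set apart between the pairs, so that rate does not apply here and the 7 values are only described. Pecam1 had 11.0 CPM in library 7, against 3.24 CPM in the next library. Jun, an immediate early transcription factor, had 592 CPM in library 7, against 131 CPM in the next. Tcf21, a factor of stroma and cap mesenchyme, had 33.8 CPM in library 6, against 6.90 CPM in library 7, so libraries 6 and 7 are not alike in these 3 genes. The other 4 were in library 2. There mt-Co3 had 13054 CPM and mt-Cytb 6416 CPM, against 5962 and 3794 CPM in the next library; these are mitochondrial respiratory genes, and the controls had 12245 to 16618 CPM of mt-Co3. The Y-linked Ddx3y had 32.6 CPM and Eif2s3y 60.6 CPM in library 2, against 15.2 and 17.1 CPM in the next library.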

How the results depend on the processing

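The counts of set-apart genes followed the fold asked for: 2850 higher and 2463 lower at 1.5-fold, and 723 and 266 at 4-fold. On deposited TPM 1656 were higher and 779 lower, and with a library left out 2123 to 2292 were higher and 1443 to 1980 lower, the most without library 7. With RLE factors there were 1944 and 1181, on the library total 2214 and 965, with all gene classes 2352 and 1443. The progenitor list had 20 to 21 set-apart members under the other scalings, filters and prior counts, on TPM, with trends removed and with a library left out; it was not counted at the other folds or with all gene classes. Its median was 6.47 on the library total, 6.58 with a prior count of 0.5, 4.45 with a prior count of 10, 4.07 on log2(TPM + 0.5), 5.67 with GC and length trends removed, and 6.11 to 6.36 with a library left out. Of the 29 other lists, 5 had a median of at least 1 and 3 a median of at most -1; with a library left out these numbers were 5 to 9, the most without library 6, and 2 to 4. No named set-apart gene changed sign. Apart from the TPM unit and the prior count, whose constants lift low values by construction, the cause of these shifts was not tested. No paired analysis was possible because no result comes from a test, and the 4 libraries share no replicate number. With 2 libraries on each side, the spread within a pair is poorly known.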

Other observations

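Adhesion and matrix families, picked after their values were seen, were divided between the pairs. Of 14 claudins, the sealing proteins of tight junctions, that passed the count filter, 8 were set apart with lower values in libraries 6 and 7 and none with higher values (median log2 difference -1.44). Of 33 collagens, 17 were higher and 1 lower (median 1.49). Among 11 cadherins, 5 were higher and 3 lower. Cdh2, which encodes N-cadherin, had 44.5 and 55.2 CPM in libraries 6 and 7 against 0.639 and 0.820 CPM in libraries 4 and 5, and Cdh11, a mesenchymal cadherin, had 75.3 and 84.5 CPM in libraries 6 and 7 against 1.23 and 1.19 CPM in libraries 4 and 5. Both were at most 4 CPM in the controls. Vim, the intermediate filament of mesenchyme, had 78.1 and 93.9 CPM in libraries 6 and 7 against 16.0 and 17.8 CPM in libraries 4 and 5. Col4a1, a basement membrane collagen, had 46.5 and 53.6 CPM in libraries 6 and 7 and 91.6 and 92.0 CPM in libraries 4 and 5, all above the 10.7 to 18.4 CPM of the controls.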
